A study of Homo sapiens and Mus musculus with 19 samples.

Results

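Half-methylated sites of HepG2, a cell line from a human liver tumour, are CCGG sites at which unmethylated and methylated DNA were counted about equally often. They were chosen on 2 libraries of 1000 HepG2 cells each: an autosomal site (hg38) entered where the pooled libraries held at least 20 tags and 40% to 60% of those tags were unmethylated. Of 2317745 human sites in the deposited tables, 71623 autosomal sites had 20 tags, and 6248 of these (8.72%) were half-methylated. The HepG2 values of 40% to 60% are therefore how the sites were chosen and carry no test.

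The assay, DARESOME, tags CCGG sites by the state of their cytosine. The enzyme HpaII cuts a site only when it is unmethylated, and the cut end receives a first tag. MspI, which also cuts methylated DNA, opens the remaining sites for further tags, which separate 5-methylcytosine (5mC) from 5-hydroxymethylcytosine (5hmC). The libraries used were HepG2 at 1000 cells (2) and as single cells (5), and H1ES, a human embryonic stem cell line, at 1000 cells (2) and as single cells (5). No treatment or genetic change is given for either line, and the labels do not say whether libraries of a line came from separate cultures. The labels give the single-cell libraries as 1 cell each. Mouse cerebellum libraries of the same series were not used.

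DNA methylation sits on the cytosine of CpG and is copied to the new strand after replication by the maintenance methyltransferase. A site can be half-methylated in bulk because the 2 parental copies differ, as at imprinted genes, because cells of the culture differ, or because neighbouring molecules differ with no fixed pattern. Tumour-derived lines commonly lose methylation over long blocks of the genome. Embryonic stem cells are highly methylated outside CpG islands.

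Sequences are shown for 4 sites in promoters, and the 250 bases before each gene's start follow, 5′ to 3′ on the strand of the gene, from RefSeq (GRCh38.p14). Capitals mark the half-methylated CCGG. These promoters were chosen after their values were seen, as half-methylated sites outside any annotated gene and before the start of a protein-coding gene, and no promoter of the imprinted genes below held such a site. They are 4 of 9 such sites and are not typical: 3 of the 4 were mostly unmethylated in H1ES, where nearly all half-methylated sites were methylated. Of the 5 not shown, LDLRAD2, DEFB127, PI16 and TPD52L3 were at 0% in H1ES (11, 19, 20 and 9 tags) and RSPH4A at 91.7%. CCGG reads the same on both strands, and 58.5% of all 35116 RefSeq promoter windows held it in these 250 bases.
SRSF7 (chr2:38751495-38751744, minus strand): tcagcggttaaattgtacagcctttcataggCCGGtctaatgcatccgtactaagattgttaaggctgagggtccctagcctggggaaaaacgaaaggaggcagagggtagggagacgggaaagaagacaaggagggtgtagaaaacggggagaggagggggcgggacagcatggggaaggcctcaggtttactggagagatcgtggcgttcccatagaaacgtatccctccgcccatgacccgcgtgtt
NKX2-2 (chr20:21522690-21522939, minus strand): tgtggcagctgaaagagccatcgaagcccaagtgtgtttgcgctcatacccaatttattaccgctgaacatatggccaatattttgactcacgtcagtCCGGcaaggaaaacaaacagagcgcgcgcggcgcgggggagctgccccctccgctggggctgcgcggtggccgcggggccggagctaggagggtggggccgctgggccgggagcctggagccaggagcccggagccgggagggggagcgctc
WFDC2 (chr20:45469503-45469752, plus strand): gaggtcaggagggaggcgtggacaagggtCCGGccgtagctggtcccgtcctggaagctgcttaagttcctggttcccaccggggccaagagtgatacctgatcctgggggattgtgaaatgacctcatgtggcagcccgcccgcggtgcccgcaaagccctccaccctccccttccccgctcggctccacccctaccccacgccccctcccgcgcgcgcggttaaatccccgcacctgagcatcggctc
MYT1 (chr20:64164202-64164451, plus strand): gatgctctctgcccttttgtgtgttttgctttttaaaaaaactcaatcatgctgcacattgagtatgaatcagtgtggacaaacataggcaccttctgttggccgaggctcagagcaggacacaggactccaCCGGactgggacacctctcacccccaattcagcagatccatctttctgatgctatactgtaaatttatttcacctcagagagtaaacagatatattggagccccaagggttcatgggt

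SRSF7 encodes a splicing factor, NKX2-2 a transcription factor of the neural tube and pancreatic islets, WFDC2 a secreted protease inhibitor used as a tumour marker, and MYT1 a zinc finger factor of neural development. At the SRSF7 site, at position 38751711 and 217 bp before the start, 7 of 18 tags (38.9%) were unmethylated in HepG2 library 1 and 4 of 7 (57.1%) in library 2. In H1ES the same site was 9 of 10 (90%) and 8 of 8 (100%) unmethylated. The NKX2-2 site, 150 bp before the start, had 5 of 13 unmethylated tags (38.5%) and 8 of 12 (66.7%) in HepG2, against 7 of 7 and 5 of 5 in H1ES. The site of MYT1, 117 bp before the start, was read the other way in H1ES: 11 of 19 (57.9%) and 5 of 15 (33.3%) tags were unmethylated in HepG2, and 0 of 13 and 0 of 8 in H1ES. The WFDC2 site had 6 of 11 (54.5%) and 7 of 12 (58.3%) in HepG2, and 10 of 10 and 0 of 1 in H1ES. At these 4 promoters the libraries of HepG2 lay between 33.3% and 66.7%, while H1ES was near one end at 3 of them and had a single contrary tag at WFDC2.

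The neighbours of these sites were read in few tags. At NKX2-2 the site 282 bp away was 85.7% unmethylated in HepG2 (18 of 21 tags), and the one at 513 bp was 91.7% (11 of 12). At 969 bp, 8 of 19 tags (42.1%) were unmethylated. At SRSF7 the nearest well-read site, 361 bp away, was 80% unmethylated (8 of 10 tags). At WFDC2 the site at 350 bp was 88.9% unmethylated (16 of 18), and at MYT1 the site at 207 bp was 66.7% (8 of 12). Most of the other CCGG sites around NKX2-2 lie within 100 bp of the next and held no tag in either line, so the half-methylated site stands in a stretch that was mostly not read.

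Depth decides how well a site is placed. The median half-methylated site held 23 tags, 87.5% held 20 to 30, and the highest held 414. A site with 10 of 20 unmethylated tags has an exact Clopper-Pearson interval, at 95%, of 27.2% to 72.8%, and all intervals here cover counting error only. Just inside the limits lay 1429 sites (40% to under 44%) and 1294 sites (56% to 60%). Just outside lay 1144 (36% to under 40%) and 939 (over 60% to 64%). Near the limits, then, membership depended on a few tags.

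**Figure D1:**
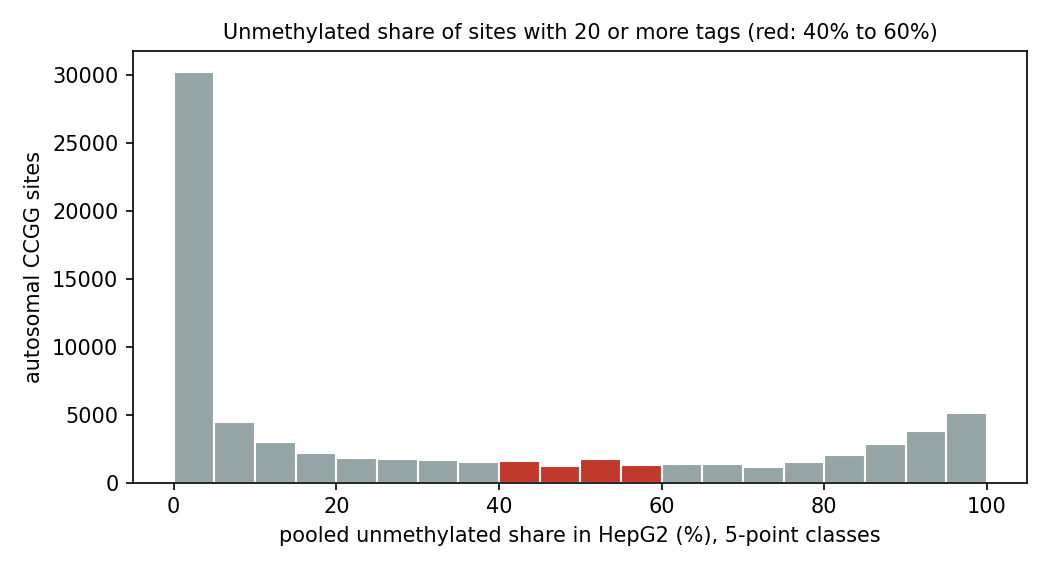
Number of autosomal CCGG sites (vertical axis) with 20 or more pooled HepG2 tags in each 5-point class of unmethylated share (horizontal axis, %). Most sites lie at one end, 39800 under 20% and 13791 at 80% or more, and the half-methylated class (red, 6248 sites) lies on a low, nearly flat floor between them.

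Sites chosen in one library were read again in the other, which the choice had not used. Of 415 sites chosen at 20 tags in library 1, 359 had at least 10 tags in library 2, where their median unmethylated share was 50% (quartiles 36.4% and 60.4%). Of these, 45.7% fell between 40% and 60%, against 8.77% of all sites read in the same way. The 217 sites chosen in library 2 gave 210 readings in library 1, with a median of 50% and 45.7% in the window, against 8.10% of all sites. Only 18 and 15 of the 359 were under 20% or over 80%, and 7 and 7 of the 210. The spread in the unused library was 18.2 and 16.2 points (SD over sites), against 12.4 and 11.4 points from counting alone at a share of 50%.

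The 2 libraries were compared at each site with Fisher's exact test, two-sided, with Benjamini-Hochberg adjustment at 0.05 over all 71623 sites. Of these, 0 passed (0%), and 0 of the 6248 half-methylated sites did. At an unadjusted p under 0.05 there were 751 sites (1.05%), of which 193 were half-methylated (3.09% of them). This compares 2 libraries, not conditions, and the depth of about 20 tags limits what it can find. On tags simulated at this depth the test called 25 of 100 sites at 90% against 10%, and 1 of 100 at 70% against 30%. It thus misses most differences of this size, and 0 sites passing does not show that the libraries agree. The median gap between the libraries at half-methylated sites was 14.3 points.

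Single HepG2 cells read the half-methylated sites at levels close to those of the 1000-cell libraries. At half-methylated sites the 2 libraries were 50.4% and 48.9% unmethylated, and the 5 single cells, which the choice did not use, were 48.5%, 48.6%, 50.01%, 48.1% and 45.7%. In H1ES the libraries of 1000 cells were 2.74% and 2.54%, and the single cells 2.46% to 3.25%. No HepG2 library overlapped an H1ES library, but HepG2 values chose the sites and so the difference has no test. Over all 71623 sites HepG2 was 29.3% to 32.04% unmethylated and H1ES 2.63% to 3.40%. The 5hmC share at the half-methylated sites came to 0.182% and 0.246% for HepG2 at 1000 cells, and to 1.79% and 1.53% for H1ES. The HepG2 tags there were thus almost all of the unmethylated and 5mC kinds, with the kinds told apart by their values.

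**Figure D2:**
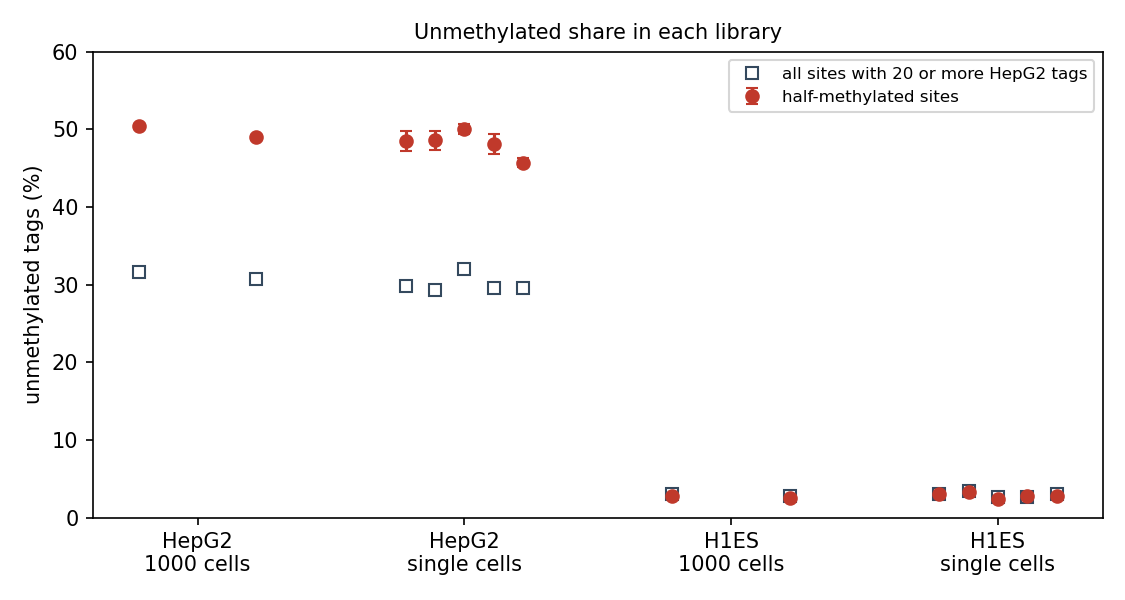
Unmethylated share of all tags (vertical axis, %) in each of 14 libraries, by line and number of cells. Red points are the 6248 half-methylated sites with exact 95% counting intervals, and open squares all sites with 20 or more HepG2 tags. HepG2 lies between 45.7% and 50.4% at the half-methylated sites, and H1ES under 3.25% in both sets apart from 1 square at 3.40%.

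Half-methylated sites lay outside genes about as often as other sites at least 20% unmethylated in HepG2. Inside no annotated gene were 46.8% of them, against 44.1% of sites 20% to 40% unmethylated, 46.5% of sites 60% to 80% and 46.7% of sites 80% or more. Sites under 20% unmethylated differed, at 21.1%, and brought all sites with 20 tags to 32.2%. Of half-methylated sites 38.7% were inside a protein-coding gene, against 56.6% of all sites with 20 tags. The share that was half-methylated was 12.7% outside genes (95% interval 12.2% to 13.1%), 11.3% in lncRNA genes and 5.97% in protein-coding genes (5.74% to 6.21%). In RefSeq promoter windows, from 250 bp before to 50 bp after a gene start, 41 of 391 sites (10.5%, 7.63% to 13.96%) were half-methylated. With CCGG density the share varied little: 8.66% of sites with no other CCGG within 500 bp and 9.75% of those with 10 or more were half-methylated. The genome annotation gives no exons, so exon and intron could not be told apart.

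The tables read crowded sites least. Of sites whose nearest CCGG lay within 50 bp, 0.353% had 20 tags, against 6.09% of those at 200 to 500 bp, 5.60% at 500 to 1000 bp and 4.04% beyond 1000 bp. The nearest CCGG was a median of 377 bp from half-methylated sites and 381 bp from all sites with 20 tags, but 169 bp from all autosomal sites. Dense CpG islands, where promoters and imprinting control regions often lie, are thus thinly covered.

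Methylation of the surroundings gave a wider range of half-methylated shares than genes did. Each site was set in its 100 kb bin, with the site itself left out. In bins under 50% methylated lay 40.8% of half-methylated sites, against 27.0% of all sites with 20 tags. For sites under 20% unmethylated it was 9.07%, for 20% to 40% 31.5%, for 60% to 80% 49.9% and for 80% or more 61.7%. Of the tested sites in bins 25% to 50% methylated, 13.6% were half-methylated (13.1% to 14.2%). In bins 75% or more methylated the share was 3.57% (3.36% to 3.79%). The bin around a half-methylated site was 54.6% methylated in the median, against 79.9% around sites under 20% unmethylated and 42.7% around sites at least 80% unmethylated. Around sites 20% to 40% unmethylated it was 59.8%, and around sites 60% to 80% it was 50%. Across the classes the bin median thus fell as the unmethylated share of the site rose. Half-methylated sites took the middle place in this order, and intermediate bins were not particular to them.

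**Figure D3:**
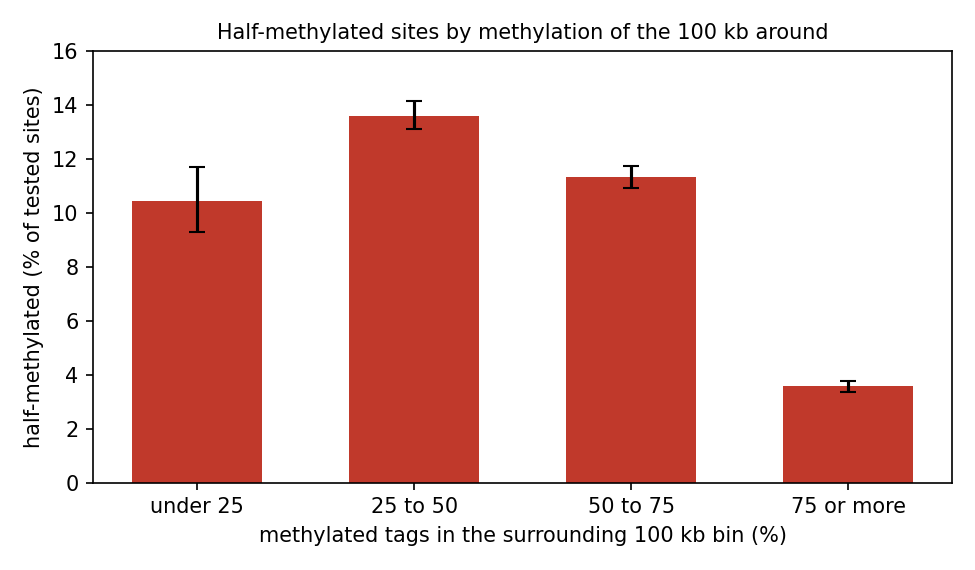
Half-methylated sites as a share of sites with 20 or more tags (vertical axis, %) by the methylation of the rest of the 100 kb bin (horizontal axis, %). Bars carry exact 95% counting intervals, and the lowest bar, 3.57%, is for bins 75% or more methylated.

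The half-methylated share was 7.20% to 11.1% across chromosomes. The chromosomes with the highest share were 21 (64 of 578 sites, 11.1%, 8.63% to 13.9%) and 10 (171 of 1630, 10.5%, 9.04% to 12.1%). The lowest were 22 (7.20%, 5.80% to 8.81%) and 17 (7.32%, 6.69% to 7.99%). Neighbours in this order mostly overlapped in their intervals. Chromosomes 2, 6, 14, 16, 17 and 20 held 1.34 to 1.92 times the tags relative to H1ES, scaled to the median chromosome, and all others at most 1.05 times. The others are called autosomes without gain here, from a limit of 1.2 times chosen after the data were seen. These 6 held 67.5% of half-methylated sites and 68.2% of all sites with 20 tags, because more of their sites reached 20 tags. On them 8.63% were half-methylated, and on the other autosomes 8.93%. The 95% intervals of these shares, 8.38% to 8.88% and 8.56% to 9.30%, overlapped.

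Over short distances, neighbours of half-methylated sites were half-methylated more often than sites in general, though most were not. Of 179 readings of the next tested site within 200 bp of a half-methylated site, 56 (31.3%, 24.6% to 38.6%) were half-methylated, against 10.9% of all sites that close to another. Within 50 bp it was 12 of 27 (44.4%, 25.5% to 64.7%). The 56 readings are 28 pairs, each counted from both of its sites, and the 12 are 6 pairs. The intervals take them as separate and so are too narrow. At 1000 to 5000 bp it was 14.2% against 8.26%, and at 20000 to 100000 bp 10.5% against 9.07%. The median gap between a half-methylated site and its neighbour was 19.3 points within 200 bp and 38.8 points at 20000 to 100000 bp. Over all pairs of tested sites the gap was smaller, at 6.46 and 15.7 points. Within 1000 bp, 18.1% of neighbours were half-methylated, 28.5% were under 20% unmethylated and 24.1% were at 80% or more. Whether sites within 200 bp were read on the same molecules was not tested.

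Across libraries the neighbours were also half-methylated more often than all sites, by a smaller factor than in the pooled libraries. With at least 10 tags in each library, sites chosen in library 1 had 21 of 87 neighbours (24.1%, 15.6% to 34.5%) within 200 bp half-methylated in library 2, against 12.3% of all sites at this distance. Chosen in library 2 and read in library 1, it was 21 of 93 (22.6%, 14.6% to 32.4%) against 11.5%. Neither lower bound lay below its background, though a pair chosen at both sites enters from both. Whether the factor differs from the pooled one was not tested. Most half-methylated sites stood alone, since only 20.2% had another tested site within 1000 bp.

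**Figure D4:**
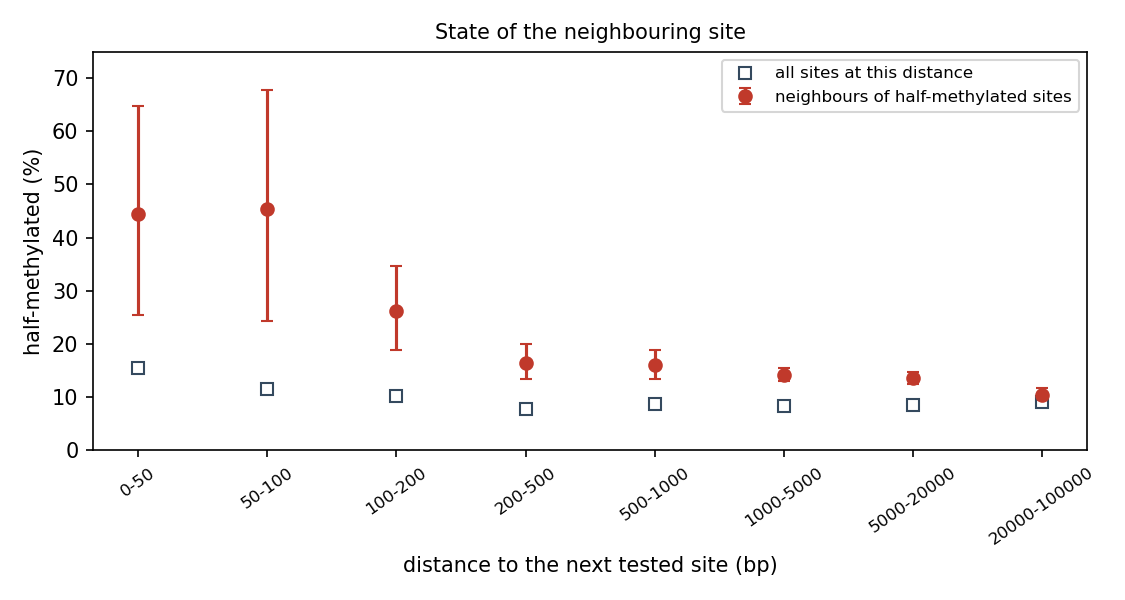
Share of neighbouring sites that are half-methylated (vertical axis, %) by distance to the next tested site (horizontal axis, bp). Red points are neighbours of half-methylated sites with exact 95% counting intervals, open squares all sites at that distance. A pair of half-methylated sites is counted from both of its sites. The share falls from 44.4% within 50 bp to 10.5% beyond 20000 bp.

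Runs of 3 consecutive half-methylated sites, each within 1000 bp of the next, numbered 8, with 112 pairs and 6000 single sites. On chromosome 21, sites 10401929 to 10402233 held 52.4% and 41.4% unmethylated tags in the 2 HepG2 libraries, and 0.855% and 0% in H1ES. It lies outside any annotated gene, 119350 bp from TPTE. On chromosome 22, runs at 10780965 to 10781796 and 11035334 to 11035458 were 48.4% and 49.3%, and 44.1% and 57.1%, in HepG2, and at most 2.22% in H1ES. These 3 runs lie in or near the unfinished short arms and pericentromeres of the acrocentric chromosomes, where repeated sequence is common, so their tags may come from several copies.

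Other runs lie near genes. One in DHRS4L1, a dehydrogenase pseudogene on chromosome 14 (24035481 to 24036643), was 55.6% and 40% unmethylated in HepG2 and 50% and 58.8% in H1ES. Pooled, though, its sites were 0%, 92.9% and 73.3% unmethylated in H1ES, so the average hides 1 methylated and 2 unmethylated sites. In HepG2 the same 3 sites were 46.8%, 45% and 51.9%. One beside NKX2-1, a transcription factor of lung and thyroid, lies 2564 bp from that gene in NKX2-1-AS1 (36522796 to 36523060). It was 53.3% and 45.5% in HepG2 and 77.8% and 72.7% in H1ES. One near IRF4, a lymphoid transcription factor, at 375213 to 376522 of chromosome 6, was 38.8% and 61.1% in HepG2 and 0% in both H1ES libraries. One 54690 bp from BLCAP on chromosome 20 was 51.2% and 53.7% in HepG2 and 3.85% and 0% in H1ES.

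The run in ROCK1P1, a pseudogene on chromosome 18 (112227 to 112310), was not alike in the 2 HepG2 libraries. Of 68 tags in library 1, 20 (29.4%) were unmethylated, and of 31 in library 2, 24 (77.4%). In single cells 1, 2 and 4 it was 0 of 8, 0 of 3 and 0 of 2, and in cells 3 and 5 it was 26 of 41 (63.4%) and 21 of 44 (47.7%). No site of the run passed Fisher's exact test after adjustment. The run spans 84 bp, and its sites held 10, 11 and 10 tags in library 2. Whether these tags came from the same molecules, which the sums would count repeatedly, was not tested. The half-methylated value of the run averages libraries at 29.4% and 77.4%.

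Single HepG2 cells read both states at nearly as many sites as independent tags would. At half-methylated sites read with exactly 2 tags in a cell, both states were seen at 42.8%, 43.9%, 44.5%, 44.4% and 48.7% of sites in cells 1 to 5. Summed, it was 2220 of 4950 readings (44.8%, 43.5% to 46.2%). Tags drawn independently at each site's pooled share would give 49.2%. In H1ES single cells it was 2.51% to 3.90% at the same sites.

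The pooled share that sets 49.2% was measured with error and was used to choose the sites, so a second reading avoids it. It was chosen after the data were seen. One tag of a cell was set against 1 tag of another cell at the same site, and this was set beside 2 tags of the same cell. At half-methylated sites 2 tags of a cell differed in 45.4% of readings and tags of 2 cells in 47.4%. The tags of 2 cells differed more often in all 20 ordered pairs of cells, by 0.0753 to 4.61 points, with a median of 2.70. The pairs share cells and so are not independent, and no p is given. The gap of 2.06 points is not particular to half-methylated sites: it was 2.83 points at sites 20% to 40% unmethylated (20 of 20 pairs), 2.08 at sites 60% to 80% (18 of 20) and 0.709 at sites under 20% (20 of 20). At 10 tags, half-methylated sites of autosomes without gain had a gap of 2.92 points in HepG2 cells. H1ES half-methylated sites, also at 10 tags, had 38.3% within and 46.1% between in H1ES cells, a gap of 7.81 points. Whether the lines differ in this was not tested.

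**Figure D5:**
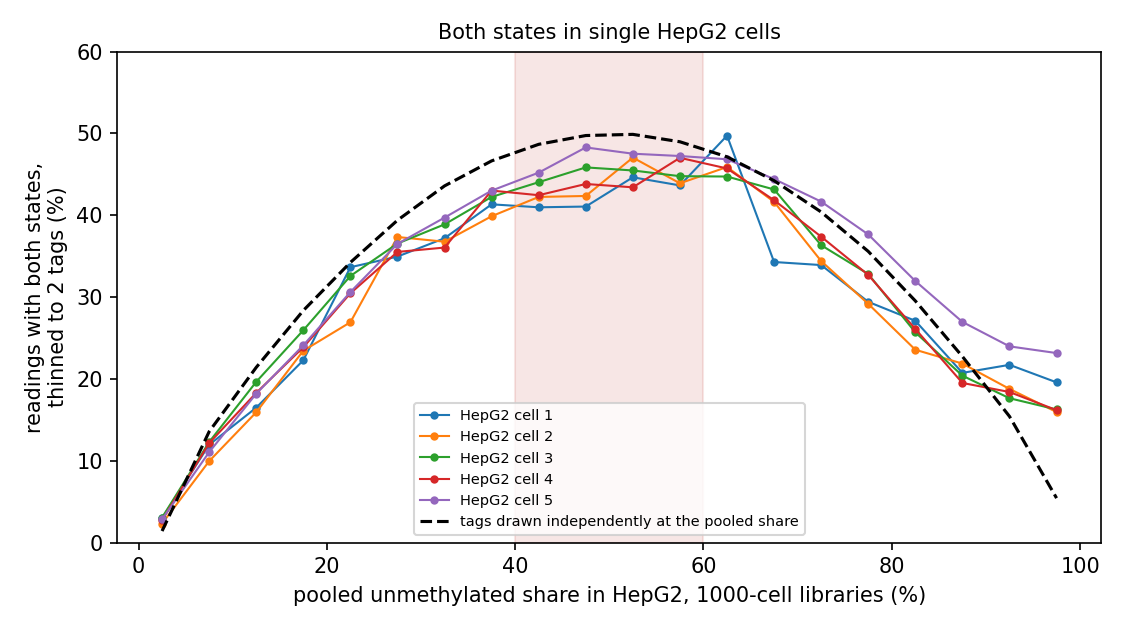
Readings with both states (vertical axis, %), each site thinned to 2 tags, by pooled unmethylated share in HepG2 (horizontal axis, %), for 5 single HepG2 cells. The shaded band marks 40% to 60%, and the dashed line is independent tags at the pooled share. The cells lie under the line in the band, and above it at the right end, where at 95% to 100% they read 15.95% to 23.2% against 5.40% to 5.46%.

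Nearly every half-methylated site had a single-cell library with both states. Of 5356 sites read with at least 2 tags in at least 2 cells, 5071 (94.7%) had at least 1 cell with both. The measure was also high at sites 20% to 40% unmethylated (87.5%), 60% to 80% (90.3%) and 80% or more (68.2%). At the 34502 sites under 20% it was 22.1%. Libraries 3 and 5 held more than 4 tags at 5.51% and 5.94% of the sites they read on autosomes without gain, and more than 2 tags at 11.9% of those on X in each. How tags of one molecule were merged is not given in the sources used here, and that each library holds 1 cell rests on the labels, so both states in a library may not mean both states in a cell. This was not tested. Only 108 (2.02%) had a cell with unmethylated tags alone, another with methylated tags alone, and none with both. Cells 3 and 5, the deepest, were both mixed at 2930 of 4763 sites (61.5%). Across 2024 sites with at least 4 tags in both of these cells, shares had a Pearson r of 0.21, within the 0.13 to 0.30 of the other 4 classes of 20 points. Over all 22588 sites read in this way, which span the whole range of shares, it was 0.85. This is a description over sites of 2 libraries, and the SD of 25.2 and 24.0 points was near the counting SD of 21.2 and 20.95. Adjacent half-methylated sites within 200 bp, each in 1 state in a cell, were alike in 24 of 35 readings (68.6%, 50.7% to 83.1%). At 200 to 1000 bp it was 35 of 75 (46.7%, 35.05% to 58.6%), and at 1000 to 20000 bp 54.1% (49.2% to 59.01%). The values do not fall steadily with distance, and their intervals overlap.

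Where a cell gave 4 tags, even splits were the most common reading in cells 2, 3 and 5. In cell 3, 348 of 1102 such sites (31.6%) had 2 unmethylated tags of 4, while 98 (8.89%) had none and 121 (10.98%) had 4. In cell 5 it was 325 of 999 (32.5%), 111 (11.1%) and 56 (5.61%). 4 independent tags at a share of 50% would give 37.5% with 2 of 4 unmethylated and 6.25% at each end. Cell 2 had 33% of 100 sites with 2 of 4. In cell 1 the most common reading was 1 of 4 (28.9% of 83 sites), and in cell 4 it was 3 of 4 (28.1% of 135), just above 2 of 4 (27.4%). Fully methylated readings were above 6.25% in all 5 cells, from 8% to 15.7%. Fully unmethylated ones were above it in cells 1, 3 and 4 and below it in cells 2 (3%) and 5.

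The single-cell reading was also set against the surroundings. With exactly 2 tags, both states were read at 46.4% of readings (44.2% to 48.6%) in bins under 50% methylated and at 42.2% (38.8% to 45.7%) in bins 75% or more methylated. Inside protein-coding genes it was 41.6% (39.4% to 43.9%), in promoter windows 9 of 31 (29.03%, 14.2% to 48.04%) and at imprinted genes 6 of 15 (40%, 16.3% to 67.7%). The intervals of the bin classes overlap, and those for promoters and imprinted genes hold the 44.8% of all half-methylated sites. With all readings of 2 or more tags thinned to 2, the values drew closer: 46.35% and 44.04% for the bin classes, 44.2% in protein-coding genes, 40.6% in promoters and 44.75% at imprinted genes, against 45.4% of all.

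The 8 sites with most tags over the single HepG2 cells, the top 1% of pooled tags left out, show the reading site by site. At position 62772392 of chromosome 20, 9621 bp from the neurotensin receptor gene NTSR1, 15 of 29 and 9 of 14 tags were unmethylated in the HepG2 libraries (51.7% and 64.3%). The 5 cells gave 1 of 2, 1 of 4, 4 of 9, 2 of 4 and 10 of 18, so each cell read both states, and H1ES had 0 of 21 and 0 of 17. In TBC1D3K, one of several near-identical genes on chromosome 17 whose tags may be shared among copies, position 37930124 had 11 of 20 and 7 of 14 (55% and 50%). Its cells also each read both states, but cell 3 had 13 of 15 unmethylated (86.7%) and cell 5 had 4 of 16 (25%). Summed over cells, the 8 sites lay between 24.4% and 69.4%.

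Both states in a cell were also read on chromosome X. There, tags per site were 0.458 and 0.455 of the autosomal level in the 2 HepG2 libraries. At 10 pooled tags, a minimum chosen after the data were seen, 203 of 2710 X sites (7.49%, 6.53% to 8.55%) were half-methylated, against 9.77% on autosomes without gain. Of these readings at 2 tags in single cells, 60 of 131 (45.8%, 37.1% to 54.7%) had both states, against 44.2% on autosomes without gain. With all readings thinned to 2 tags the order was the other way, 40.6% on X and 44.7% on those autosomes, so neither was shown to be higher. Over 510 readings on X, 2 tags of a cell differed in 39.7% and tags of 2 cells in 43.3%, a gap of 3.55 points. Tags of 2 cells differed more often than tags of 1 cell in 10 of 20 pairs on X. The gaps of these pairs ran from -10 to 21.2 points. At sites at least 80% unmethylated in HepG2, tags of a cell differed in 21.5% of readings. Independent tags at the pooled share would give 15.4% to 15.9% there, depending on the cell. What part mixed readings beyond independent tags have in the values at half-methylated sites was not tested.

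The same sites in H1ES were methylated. Of 5585 half-methylated sites with at least 10 H1ES tags, 5396 (96.6%) were at least 80% modified, against 96.4% of all sites. At 20 H1ES tags, 12 of 2136 (0.562%) were half-methylated in both lines, which is 9.76% of the 123 half-methylated H1ES sites read there. They include BMP8A, a growth factor gene (44.8% unmethylated in HepG2, 40% in H1ES, each pooled), a site 3267 bp from NODAL, the ligand of early germ layer signalling (48% and 50%), TAOK2, a kinase gene (48.3% and 50%) and SLC52A3, a riboflavin transporter gene (57.6% and 45.5%). The 50% of TAOK2 averages H1ES libraries that differed, at 1 of 8 tags (12.5%) and 9 of 12 (75%). Its HepG2 libraries were at 35.3% and 66.7%. The H1ES libraries at BMP8A, NODAL and SLC52A3 lay between 38.5% and 55.6%. TAOK2 was not alone among the shared sites in having H1ES libraries far apart. A site 132 bp from SLC10A4 was at 2 of 12 tags (16.7%) and 8 of 10 (80%), and one in FUZ at 58.3% and 12.5%. Others were closer, as in LINC00537 (59.4% and 41.7%). In single cells BMP8A was at 18.8% of 16 tags in HepG2 and 8.33% of 12 in H1ES, and the NODAL site at 83.3% of 6 and 60% of 10. Of all 23781 sites read in both lines, 0.517% were half-methylated in H1ES, so the share among the HepG2 half-methylated sites was near the background.

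A few were unmethylated in H1ES. At 20 H1ES tags, 15 of 2136 (0.702%) were at least 80% unmethylated there, against 1.08% of all sites. They include the promoter of NKX2-1, at position 36519570 of chromosome 14, with 10 of 21 and 5 of 13 unmethylated tags in HepG2 (47.6% and 38.5%) and 10 of 11 and 9 of 9 in H1ES. Others lie in SEMA6A, a guidance cue gene (50% in HepG2, 100% in H1ES), CYP24A1, the vitamin D hydroxylase gene (40% and 90.9%), and SLC32A1, the vesicular GABA transporter gene (56.4% and 95%). Among 34 promoter sites with at least 10 H1ES tags, 23 (67.6%) were at most 20% unmethylated in H1ES, against 48.6% of all promoter sites read. At least 80% unmethylated there were 6 (17.6%), against 43.1%.

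Imprinted genes, expressed from one parental copy, held half-methylated sites about as often as other sites. Of 76 genes listed, 73 were annotated, 48 had a site with 20 tags within 5000 bp and 14 had a half-methylated one. It was 18 of 219 sites (8.22%, 4.94% to 12.7%), against 8.72% of all tested sites and 6.44% of sites at protein-coding genes. KCNQ1, a potassium channel gene, held 4 (59.1%, 54.5%, 45% and 40% unmethylated in HepG2), and all 4 were at 0% in H1ES. HM13, a signal peptide peptidase gene, had 2 within 5000 bp, of which the one at 31512415 of chromosome 20 was 50% and 36% in the HepG2 libraries and 0% in both of H1ES. GNAS, the stimulatory G protein gene, held 2, and the one at 58850669 was 50% and 60% in HepG2 and 88.2% and 88.9% in H1ES. Single sites also lay in or near OSBPL5, ANO1, RTL1, ATP10A, NAA60, ZIM2, BLCAP, SNU13, GNAS-AS1 and SLC22A3, at 41.7% to 60% in HepG2. Of the 18 sites, the one at 58850669 was the only one above 10% in H1ES, and 1 had no H1ES tag.

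At genes that mark the lines, sites within 5000 bp of HNF4A, a hepatocyte regulator, were 21.5% and 22.7% unmethylated in HepG2 and 3.12% and 2.35% in H1ES, while POU5F1, a pluripotency gene, was 13.1% and 12.2% against 23.5% and 36.5%. All 5 hepatocyte genes on the list were less methylated in both HepG2 libraries than in either H1ES library. This does not check the lines, since over all autosomal tags HepG2 was 39.1% and 38.001% unmethylated and H1ES 4.73% and 4.24%. HNF4A, ALB (11.4% and 3.33%) and F2 (9.48% and 6.41%) were more methylated than the HepG2 average. Of 5 pluripotency genes, POU5F1 and ZFP42 were less methylated in H1ES. NANOG, LIN28B and DPPA4 were not: DPPA4 was 50% and 53.3% unmethylated in HepG2 and 16.8% and 16.4% in H1ES. No RNA was measured.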

How the data were processed

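Tags at CCGG sites were measured in 14 human libraries. The submitters' processing notes name the build hg38, cutadapt 1.5, Bowtie2 2.3.4.1 and UMI-tools 0.5.4. What each tool did, and how tags were counted, is not given in the sources used here. The deposited tables give for each site 3 values as a fraction, 1 for each kind of tag, and the deposited count of tags. The tables have no header, so the kinds were told apart by their values, the unmethylated share being the one higher at crowded sites and the larger of the other 2 being taken as 5mC. Tags of each kind were recovered as fraction times count, which was whole within 0.00141.

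The 1000-cell libraries held 4911898 to 6644517 tags, and single cells 526207 to 2455908. Column positions matched the second base of CCGG at 71749 of 71749 sites in RefSeq promoters. Genes came from RefSeq (GRCh38.p14). Python 3.11.15, NumPy 2.4.6, SciPy 1.17.1 and matplotlib 3.10.9 were used. Fisher's exact test was tested on simulated data, where it called 25 of 100 sites at 90% against 10%. It called 1 of 100 at 70% against 30% and 0 of 71423 unchanged sites. Each single-cell library is 1 cell with no culture named, so single cells were not tested. Genes and sites were named by rule: runs of 3, imprinted genes with most sites, the 2 highest and lowest chromosomes, and deepest single-cell sites. The sites and lists were chosen with earlier results of these data known. Alternatives covered tag minimum, window, chromosome X, tag kinds, bin size, flank and left-out libraries.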

Additional observations from a re-analysis of the deposited data

How the results depend on the processing

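Of 59 alternatives over 9 results, 28 stayed within the spread or interval of the reported value and 31 moved. Whether any changed direction was not scored. The half-methylated share was 9.54% at 10 tags, 13.4% at 60, 4.52% for a window of 45% to 55% and 12.6% for 35% to 65%, and 8.80% to 9.22% with a library left out. Sites chosen in 1 library fell in the window of the other in 41.3% at 10 tags (7376 readings), 51.8% at 30 (56) and 68.8% at 40 (16). Neighbours within 200 bp were half-methylated in 80% at 40 tags (10 readings), 18.6% and 38.8% for the narrow and wide windows, 20.99% at 10 tags, 24.1% and 22.6% across libraries, and 60% to 66.7% with a library left out (10 and 6 readings). Bins under 50% methylated held 47.2% at 20 kb, 44.9% at 40 tags and 45.04% to 46.05% with a library left out. Both states were read in 67.7% at 3 tags, 81.6% at 4 and 69.8% at 2 or more, since more tags give more chances, in 40.1% at 40 pooled tags, in 38.4% for H1ES half-methylated sites in H1ES cells, and in 43.9% to 45.3% with a cell left out. Methylation in H1ES was 97.4% at 20 tags, 94.99% at a limit of 90%, and 96.9% to 97.9% with a library left out. Half-methylation in both lines was 1.56% at 40 H1ES tags and 0.461% to 2.38% with a library left out. At imprinted genes it was 0% to 8.70% with a HepG2 library left out, on 0 and 2 sites. The cause of these moves was otherwise not tested. The tag minimum of 10 for neighbours and for chromosome X, the comparison of tags within and between cells, H1ES half-methylated sites in H1ES cells, sites under 60 tags, and libraries left out for neighbours, bins, imprinted genes and HepG2 in the shared sites, were chosen after the data were seen. No paired analysis was possible because no test was run between the lines, whose HepG2 values chose the sites.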

Other observations

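Olfactory receptor genes, which detect odorants and are silent outside the nose, held 8 half-methylated sites of 62 tested within 5000 bp (12.9%, exact 95% interval 5.74% to 23.9%). The background for this and the lists that follow is 8.72% of all tested sites and 6.44% of those at protein-coding genes. Genes listed as germline genes held 4 of 15 (26.7%, 7.79% to 55.1%). Both intervals hold 8.72%, and that of the germline genes lies above 6.44% on few sites. The germline sites were 2 at ACTL8 (40% and 50% unmethylated in HepG2), 1 at DDX4, a germ cell helicase gene (57.1%), and 1 at STK31 (42.9%). STK31 was 93.3% unmethylated in H1ES (14 of 15 tags), and the others were at 0%. HOX genes, which set position along the body, held 2 of 17 (11.8%, 1.46% to 36.4%), at HOXB3 and HOXD13. HOXB3 was 40.9% in HepG2 and 50% in H1ES, and HOXD13 was 50% and 91.7%. Zinc finger genes held 42 of 711 (5.91%, 4.29% to 7.90%), and housekeeping genes 0 of 9, which allows a share of up to 33.6%.

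Of the 7 half-methylated sites with at least 100 tags, 6 lay outside genes, as did 17 of all 21 sites that deep. At 60 tags it was 9 of 22 half-methylated sites (40.9%), against 46.8% of all half-methylated sites. At position 55790598 of chromosome 2, 133 of 231 and 106 of 183 tags were unmethylated in the HepG2 libraries (57.6% and 57.9%), with 0 of 166 and 0 of 151 in H1ES. In single HepG2 cells it was 40.8%, 57.1%, 63.6%, 58.1% and 54.3%. Cells 3 and 5 held 302 and 282 tags at this site, against a mean of 4.09 and 4.14 per half-methylated site. Whether its tags come from several copies of the sequence was not tested. The 7 are 33.3% of the 21 (14.6% to 56.97%). At position 43322720 of chromosome 17, the site with most tags over the single cells outside the top 1%, 55.6%, 71.4%, 46.2%, 66.7% and 40% were unmethylated in the 5 HepG2 cells, and no H1ES 1000-cell library had a tag.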
